A study of Mus musculus with 9 samples.

Results

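The genes described here code for the sialyltransferases that build gangliosides, St3gal5, St8sia1, St8sia3, St8sia5, St3gal2, St6galnac3, St6galnac4, St6galnac5 and St6galnac6, with B4galnt1, which adds N-acetylgalactosamine and is not a sialyltransferase. They were chosen by gene symbol in the platform annotation. Of these 10 genes, 8 had a probe set, 1 each, among 19505 named genes, and the annotation used here named no probe set for St6galnac4 and St6galnac6.

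Gangliosides are glycolipids of the cell surface that carry sialic acid, and nerve cell membranes are rich in them. They are built in the Golgi by enzymes that add one sugar at a time to lactosylceramide, so that each enzyme decides which branch of the family is filled. Sialyltransferases add the sialic acids, and in the brain the finished lipids are known for roles at synapses and at the contact between axon and myelin.

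RNA from male mouse brain was hybridised to Clariom S arrays, 3 per group for 3 groups. The controls were C57BL/6JHamSlc-+/+ mice, called wild type here, given vehicle. The other groups were C57BL/6JHamSlc-ob/ob mice, which lack working leptin and become obese, given either vehicle or 100 mg/kg of an extract of the bean Vigna umbellata (VE) by oral gavage. All mice entered the study at 6 weeks of age and were treated for 42 days on standard chow, and no wild-type group received VE. Values are log2 signals, on which a difference of 1 is a doubling, and they have no true zero. The level of one probe set cannot be set against that of another gene.

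The family was put forward because of 1 gene in 1 comparison: St6galnac5 had the smallest p value of all 22206 probe sets in VE against wild type. That comparison is therefore given as a description, nothing is read from calls of the members in it, and the other comparisons of St6galnac5 share its arrays. Whether the 3 arrays of a group came from separate mice is known only as far as the labels number them, and the p values measure the spread between these arrays. VE array 2 stood apart from the rest, with a correlation of 0.962 to 0.970 with the other 8 arrays, which had 0.979 to 0.993 among themselves. Its signals were also more compressed, with an SD over probe sets of 2.38 against 2.56 to 2.84 on the others. That SD was 2.78 to 2.84 in wild type, 2.56 to 2.73 in ob/ob vehicle, and 2.8 and 2.69 on VE arrays 1 and 3. The labels name brain and the dose of 100 mg/kg, while the design text of the series also names a 50 mg/kg dose and white adipose tissue. The labels were followed, and that dose was not analysed here.

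St6galnac5 codes for an enzyme that adds sialic acid to the N-acetylgalactosamine of complex gangliosides and so makes the alpha-series gangliosides of the brain. Its deposited signal was 14.11, 14.92 and 14.76 on the 3 wild-type arrays, 13.56, 13.67 and 13.74 on the ob/ob vehicle arrays, and 12.76, 12.49 and 12.41 on the VE arrays. The 3 groups did not overlap, and they stood in the order wild type, ob/ob vehicle, ob/ob VE. The group means were 14.60 (SD 0.429), 13.66 (SD 0.0907) and 12.55 (SD 0.183), n = 3 each. From wild type to VE the difference of the means was -2.04, a 4.12-fold lower signal. This is the difference that chose the gene and it carries no test here.

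Each part of that difference missed the threshold of an adjusted p of 0.05 when tested over all probe sets. In ob/ob vehicle against wild type St6galnac5 was at -0.94 (SE 0.233, 95% interval -1.44 to -0.44, limma adjusted p 0.0648), a 1.92-fold lower signal. In VE against ob/ob vehicle it was at -1.10 (SE 0.233, 95% interval -1.61 to -0.60, limma adjusted p 0.0588), a 2.15-fold lower signal. Both values use the 3 ob/ob vehicle arrays, with opposite sign, so they are not independent of one another. They also add up to the difference that chose the gene. The adjusted p values of St6galnac5 in all settings therefore come from selected values, lean low, and support no call. Without VE array 2 both differences passed, at -0.94 (limma adjusted p 0.0123) and -1.07 (limma adjusted p 0.0342), in fits where 2975 and 403 of 22206 probe sets passed. In bulk tissue a lower signal can come from fewer cells that make the transcript or from less transcript in each cell, and the data cannot tell these apart.

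The ordering of St6galnac5 depended in part on the scaling between arrays. After quantile normalization, which gives all 9 arrays the same distribution of signals, the wild-type arrays stood at 13.77, 14.59 and 14.53, the ob/ob vehicle arrays at 13.43, 13.98 and 13.82, and the VE arrays at 12.56, 13.28 and 12.39. The VE arrays were still below all others, while wild-type array 1 now lay between the ob/ob vehicle arrays. The difference between ob/ob vehicle and wild type shrank to -0.56 (SE 0.280, limma adjusted p 0.316), and that between VE and ob/ob vehicle stayed near its first value at -0.999 (SE 0.280, limma adjusted p 0.101). VE against wild type was then -1.56. With quantile normalization and VE array 2 left out together, VE against ob/ob vehicle was -1.29 (limma adjusted p 0.0245). In that fit 418 probe sets passed. This setting was chosen after seeing the data, and its adjusted p supports no call.

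Set against its own family on each array, St6galnac5 kept the same order of groups with the deposited values. Its log2 signal minus the median of the other 7 genes was 4.60, 5.23 and 5.06 in wild type, 4.29, 4.51 and 4.32 in ob/ob vehicle, and 3.08, 3.12 and 2.89 in VE. VE array 2, which was the lowest of the 9 arrays for 4 of the 8 genes, did not stand apart in this quantity. After quantile normalization the values were 4.40, 5.05 and 4.94, then 4.23, 4.71 and 4.31, then 3.00, 3.49 and 2.88, so that wild type and ob/ob vehicle overlapped and VE stayed below both. These values are a description of unequal change within an array. The arrays also differ in how widely their signals spread, and how far that enters the deposited values was not tested.

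**Figure D1:**
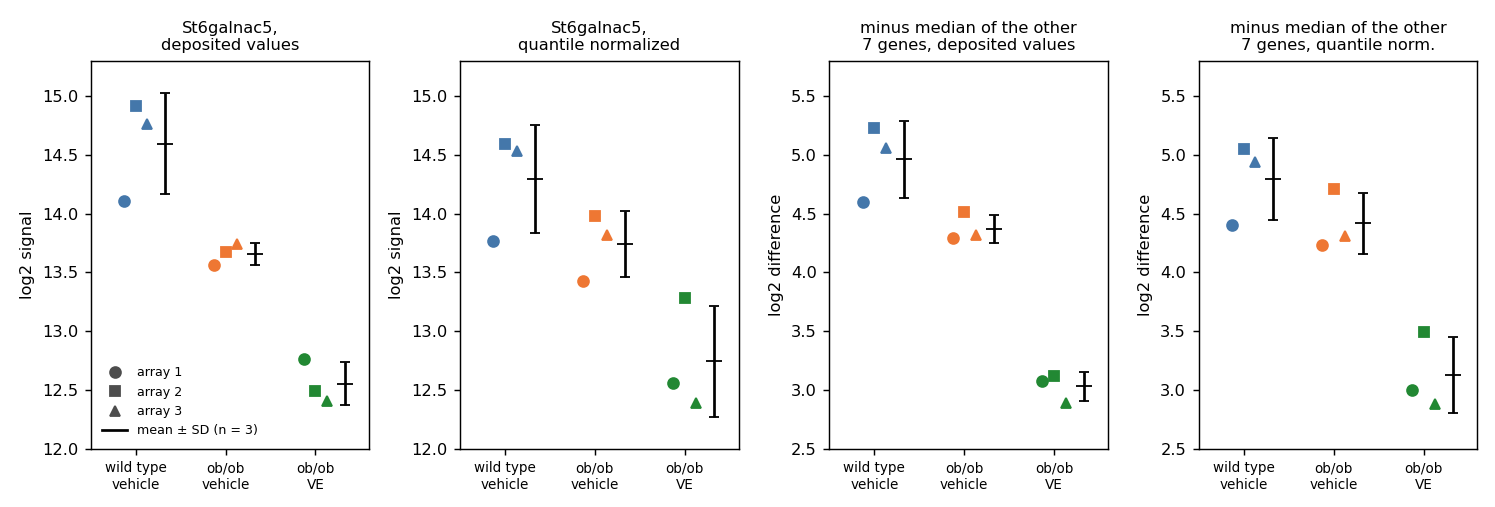
St6galnac5 by array, with 1 symbol per array and the mean ± SD (n = 3) beside each group. The left panels show log2 signal as deposited and after quantile normalization, the right panels the log2 difference from the median of the other 7 genes. VE arrays lie below the rest in all 4 panels, and wild type and ob/ob vehicle overlap after quantile normalization.

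St6galnac3 codes for a related enzyme that adds sialic acid at the same sugar. In the RefSeq annotation of GRCm38.p6 it is the direct neighbour of St6galnac5 on chromosome 3, with 0 protein-coding genes between them. Its signal was 6.52, 7.84 and 7.52 in wild type, 7.21, 6.87 and 6.81 in ob/ob vehicle, and 7.02, 6.32 and 6.91 in VE. The wild-type arrays spread more widely than the other 6 arrays together, and the 3 groups overlapped. It was at -0.33 in ob/ob vehicle against wild type (SE 0.314, 95% interval -1.01 to 0.35, limma adjusted p 0.584) and at -0.21 in VE against ob/ob vehicle (SE 0.314, 95% interval -0.89 to 0.47, limma adjusted p 0.826). Without VE array 2 the latter was 0.0017, so the lower mean in VE was not there without that array. Both genes read lowest in their wild-type group on array 1.

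St3gal5 codes for GM3 synthase, which adds the first sialic acid to lactosylceramide and on which nearly all brain gangliosides depend. Its signal was 11.52, 11.24 and 11.03 in wild type, 11.33, 10.85 and 11.11 in ob/ob vehicle, and 11.59, 10.20 and 11.31 in VE. VE array 1 was the highest of the 9 and VE array 2 the lowest, and the groups overlapped. The difference was -0.17 in ob/ob vehicle against wild type (SE 0.314, limma adjusted p 0.796) and turned to 0.08 after quantile normalization. Between VE and ob/ob vehicle it was -0.06 (SE 0.314, limma adjusted p 0.954), and 0.35 without VE array 2 (limma adjusted p 0.407). The 95% intervals ran from -0.84 to 0.51 and from -0.74 to 0.61, so a shift of up to about that size is not shown to be absent.

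St8sia1 codes for GD3 synthase, which adds the next sialic acid to GM3 and opens the b-series of gangliosides. It read 9.51, 9.69 and 9.70 in wild type, 9.27, 9.16 and 9.42 in ob/ob vehicle, and 9.68, 9.37 and 9.52 in VE. All ob/ob vehicle arrays lay below all wild-type arrays, and VE overlapped with both. The difference was -0.35 in ob/ob vehicle against wild type (SE 0.191, 95% interval -0.76 to 0.06, limma adjusted p 0.322) and 0.24 in VE against ob/ob vehicle (SE 0.191, 95% interval -0.17 to 0.65, limma adjusted p 0.629). After quantile normalization these were -0.17, with overlapping groups, and 0.30, with all VE arrays above all ob/ob vehicle arrays. Neither passed on that scale (limma adjusted p 0.659 and 0.417).

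St8sia3 and St8sia5 code for enzymes that add sialic acid to sialic acid, and St8sia5 makes the gangliosides with the longest sialic acid chains. St8sia3 read 13.63, 13.56 and 13.50 in wild type, 13.30, 13.02 and 13.10 in ob/ob vehicle, and 13.45, 12.52 and 13.32 in VE. Every array of both ob/ob groups lay below the wild-type range. It was at -0.42 in ob/ob vehicle against wild type (SE 0.244, 95% interval -0.95 to 0.10, limma adjusted p 0.347) and at -0.04 in VE against ob/ob vehicle (95% interval -0.57 to 0.48, SE 0.244, limma adjusted p 0.962). After quantile normalization the first was -0.12 and the second 0.07, and the second was 0.24 without VE array 2 with the deposited values.

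St8sia5 showed the same layout over the arrays. It read 10.80, 10.75 and 10.62 in wild type, 10.27, 10.02 and 10 in ob/ob vehicle, and 10.46, 9.67 and 10.41 in VE. Both ob/ob groups lay wholly below wild type with the deposited values and also after quantile normalization. In ob/ob vehicle against wild type it was at -0.63 (SE 0.233, 95% interval -1.13 to -0.12, limma adjusted p 0.161), and at -0.41 after quantile normalization (limma adjusted p 0.203). Without VE array 2, which enters the shared estimate of spread, the limma adjusted p was 0.0269, in a fit where 2975 of 22206 probe sets passed. With VE against ob/ob vehicle it was at 0.08 (SE 0.233, 95% interval -0.42 to 0.59, limma adjusted p 0.915), and 0.34 without VE array 2 (limma adjusted p 0.362).

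B4galnt1 codes for GM2/GD2 synthase, the enzyme that moves the simple gangliosides on to the complex ones. It read 8.80, 8.63 and 9.05 in wild type, 8.33, 8.28 and 7.92 in ob/ob vehicle, and 8.91, 7.95 and 8.06 in VE. The ob/ob vehicle arrays lay below all wild-type arrays, and VE array 1 lay within the wild-type range. It was at -0.65 in ob/ob vehicle against wild type (SE 0.263, 95% interval -1.22 to -0.08, limma adjusted p 0.192), and -0.56 after quantile normalization (limma adjusted p 0.214). In VE against ob/ob vehicle it was at 0.13 (SE 0.263, 95% interval -0.44 to 0.70, limma adjusted p 0.880), and -0.17 without VE array 1.

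St3gal2 codes for an enzyme that adds the terminal sialic acid of complex gangliosides such as GD1a. It read 6.84, 6.98 and 6.84 in wild type, 7.06, 7.14 and 6.72 in ob/ob vehicle, and 6.84, 6.94 and 6.66 in VE. The groups overlapped throughout, and all 9 arrays lay between 6.66 and 7.14. It was at 0.09 in ob/ob vehicle against wild type (SE 0.197, 95% interval -0.34 to 0.51, limma adjusted p 0.833), with a change of sign to -0.01 after quantile normalization, and at -0.16 in VE against ob/ob vehicle (SE 0.197, 95% interval -0.59 to 0.27, limma adjusted p 0.782).

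**Figure D2:**
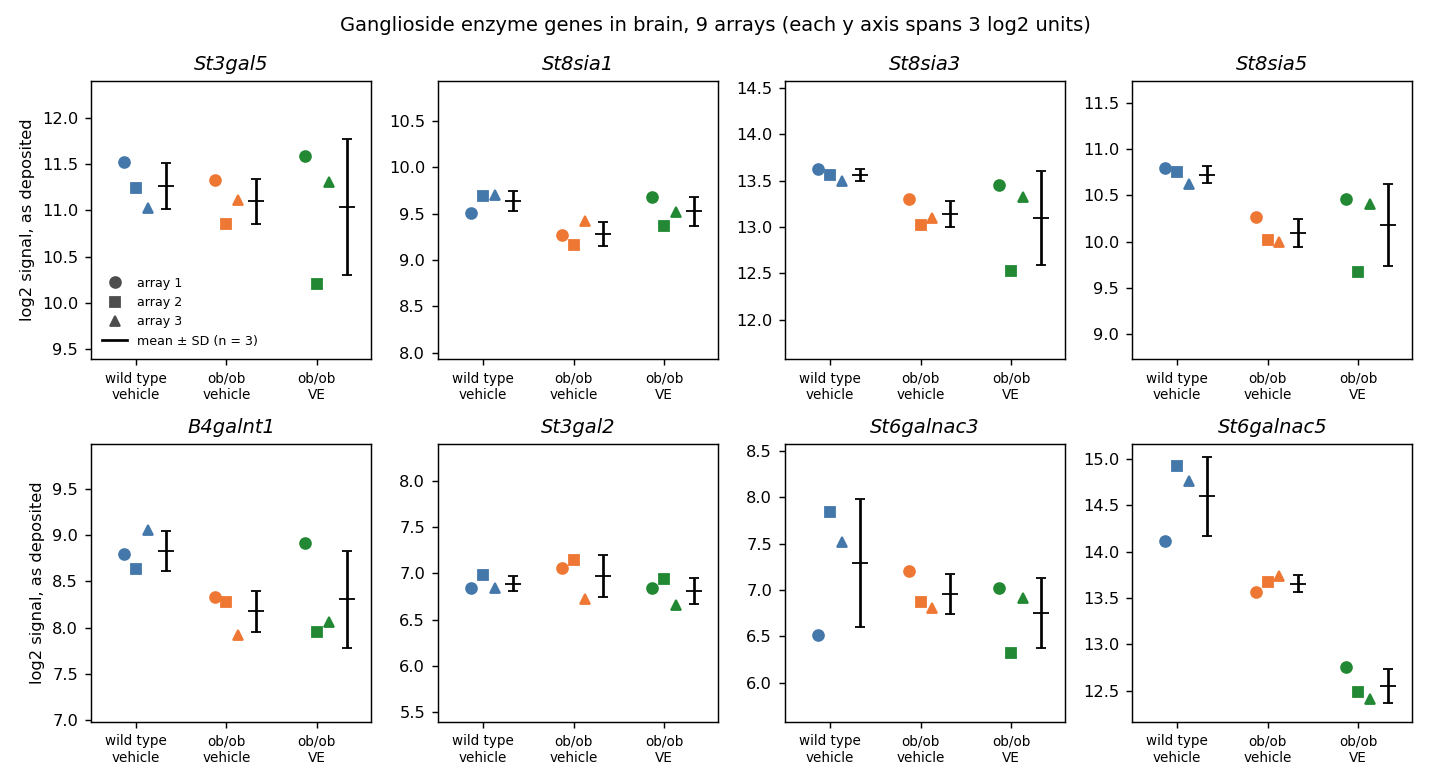
Log2 signal as deposited for the 8 genes on the 9 arrays, with 1 symbol per array and the mean ± SD (n = 3) beside each group; each vertical axis spans 3 log2 units. St6galnac5 is the gene whose 3 groups are all apart, and VE array 2 is the lowest of the VE group for 6 of the 8 genes, all but St3gal2 and St6galnac5.

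Counted together in ob/ob vehicle against wild type, 0 of the 8 genes passed, where 1.27% of all probe sets did (limma, adjusted p under 0.05). At unadjusted p under 0.05 there were 3, St6galnac5, St8sia5 and B4galnt1, all lower, against 20.1% of all probe sets. The ob/ob vehicle arrays lay wholly below the wild-type arrays for 5 of the 8 genes, St6galnac5, St8sia1, St8sia3, St8sia5 and B4galnt1, against 17.5% of all probe sets. Both counts include St6galnac5, which was chosen in part on the same wild-type arrays, so they lean high. The median difference of the 8 was -0.39, and -0.35 without St6galnac5, against 0.02 over all probe sets. After quantile normalization it was -0.29, and -0.17 without St6galnac5, against -0.01, with 3 of 8 genes wholly below, against 15.1%, and 0 of 8 passing, against 2.84%. Bright probe sets as a class had lower values in ob/ob vehicle: the 7402 with the highest mean signal, which hold St3gal5, St8sia1, St8sia3, St8sia5 and St6galnac5, had a median of -0.270, with 35.1% wholly below wild type. After quantile normalization they were at -0.039, with 17.9% wholly below.

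In VE against ob/ob vehicle 0 of the 8 genes passed, where 0.486% of all probe sets did (limma, adjusted p under 0.05), and 1, St6galnac5, was under an unadjusted p of 0.05, against 13.3%. VE and ob/ob vehicle did not overlap for that same gene alone, against 16.5% of all probe sets. The median of the 8 was -0.05, against -0.07 over all probe sets, and the other 7 genes lay between -0.21 and 0.24. After quantile normalization the median was 0.02, as over all probe sets, and 0 of 8 passed, against 1.46% of all probe sets. The 7402 brightest probe sets were at -0.037 with the deposited values. St6galnac5 was at percentile 1.33 of the differences of all probe sets. It was chosen on the same VE arrays, so nothing is read from this rank, its unadjusted p or its lack of overlap. In VE against wild type, the comparison that chose the family, 1 of the 8 genes was called, where 0.0991% of all probe sets were, and nothing is read from that count. After quantile normalization 0 of 8 genes and 0% of all probe sets were called. Leaving out each of the 9 arrays in turn moved the St6galnac5 difference between -2.29 and -1.88. The other 7 genes lay between -0.54 and -0.07 there, and St6galnac3 and St8sia5 were both at -0.54.

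**Figure D3:**
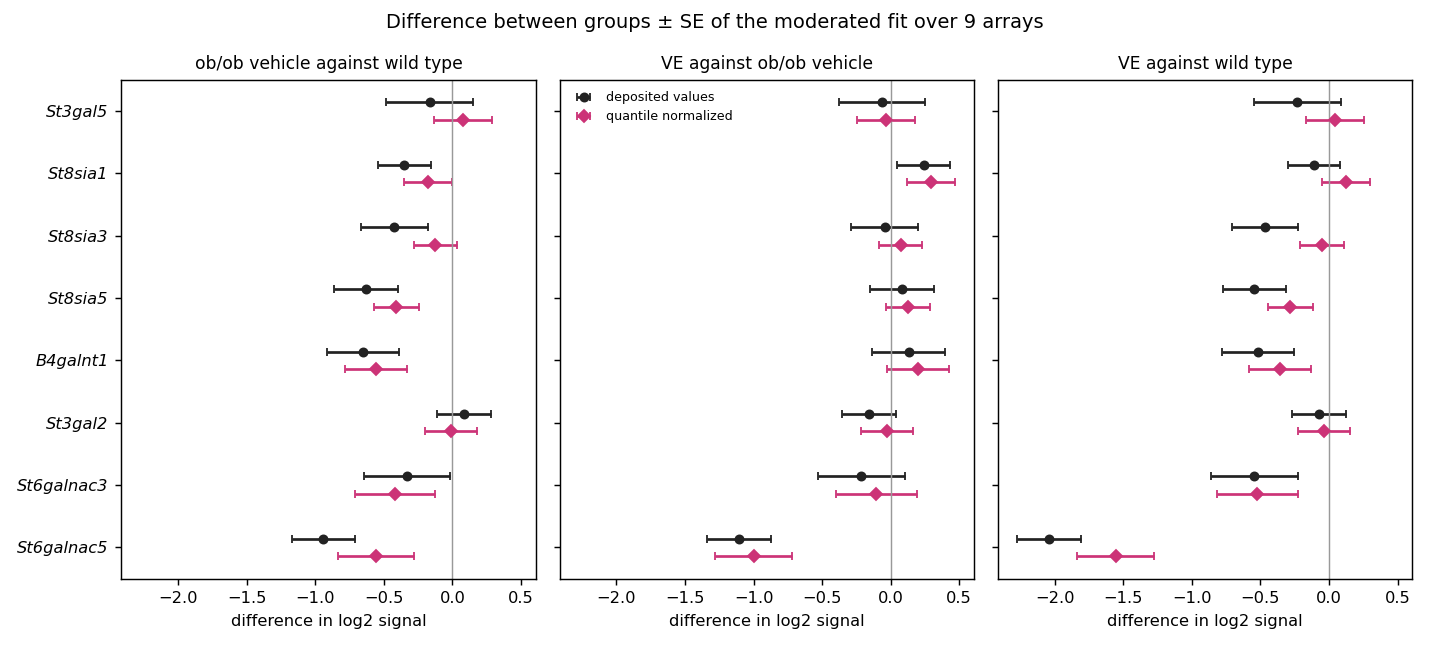
Difference in log2 signal ± SE of the fit over 9 arrays for the 8 genes in the 3 comparisons, with deposited values as black circles and quantile-normalized values as pink diamonds. St6galnac5 is at -0.94 and -0.56 on the 2 scales in ob/ob vehicle against wild type, and at -1.10 and -0.999 in VE against ob/ob vehicle, where the other 7 genes lie between -0.21 and 0.30 over both scales.

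Genes of the rest of the route were taken from 7 lists of 54 genes, of which 49 were measured. In ob/ob vehicle against wild type 2 of the 49 passed, both lower, against 1.27% of all probe sets. The median of the 49 was -0.23, against 0.02 over all probe sets and -0.270 over the 7402 brightest. After quantile normalization it was -0.18, against -0.01 over all probe sets. Gm2a, the activator protein that presents GM2 to its hydrolase, fell by 1.02 (limma adjusted p 0.0366, SE 0.196, 3 arrays a group), and by 0.82 after quantile normalization (limma adjusted p 0.0305). Fa2h, which hydroxylates the fatty acids of myelin galactolipids, fell by 1.66 (limma adjusted p 0.0117, SE 0.216, 3 arrays a group), and was at -1.58 after quantile normalization (limma adjusted p 0.00831). Both calls were lost without ob/ob vehicle array 2 or 3 or wild-type array 2 or 3, but in these 4 fits 0 of 22206 probe sets passed. Gm2a alone was lost without ob/ob vehicle array 1, wild-type array 1 or VE array 3. With each of the 9 arrays left out, Gm2a stood at -1.09 to -0.94 and Fa2h at -1.85 to -1.55. Without VE array 2, 12 of the 49 genes passed, where 2975 of 22206 probe sets did.

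Genes that supply the common precursor had negative differences in ob/ob vehicle against wild type, none past the threshold. All 11 measured genes for ceramide and its first sugars were at negative values, with a median of -0.31, near the -0.270 of the brightest probe sets, and 0 of 11 passed. After quantile normalization 8 of 11 were negative, with a median of -0.18. B4galt5, a lactosylceramide synthase, was at -0.87 (SE 0.249, limma adjusted p 0.0891), and Cers2, the synthase of ceramides with very long chains, at -0.91 (SE 0.272, limma adjusted p 0.0976). Of the 3 genes of the core chain and its competing branches 0 passed: B3gnt5, which starts the lacto-series, was at 0.36 (limma adjusted p 0.445), and A4galt, which starts the globo-series, at -0.23 (limma adjusted p 0.538).

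Among 10 other sialyltransferases 0 passed, with 7 lower, 3 higher and a median of -0.18. St3gal3, which caps glycoproteins and gangliosides, was at -0.69 (SE 0.189, limma adjusted p 0.0816). St3gal4, which caps mainly glycoproteins, was at -0.74 (SE 0.215, limma adjusted p 0.0922), and at -0.83 after quantile normalization, where it passed (limma adjusted p 0.0439). Of 5 genes for the sialic acid donor 0 passed, with 3 lower, 2 higher and a median of -0.03 (0.09 after quantile normalization). Nans, the sialic acid synthase, was at -0.51 (limma adjusted p 0.210) and Gne, the first enzyme of the pathway, at -0.56 (limma adjusted p 0.278).

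Breakdown and binding genes did not share a direction. Of 9 measured breakdown genes, from 12 listed, 1 passed (Gm2a), with 5 lower and 4 higher. The lower genes lay at -1.02 to -0.53 and the higher ones at 0.03 to 0.47. The median was -0.53, and -0.09 after quantile normalization, where 6 were lower and 3 higher. The sulfatide and galactosylceramide branch, a myelin route, had 5 of 5 genes lower with a median of -0.72, and 1 passed (Fa2h). Of 6 receptors that bind sialic acid 0 passed: Mag, the myelin protein that binds complex gangliosides on axons, was at -0.88 (SE 0.259, limma adjusted p 0.0959), and Siglec1, a macrophage lectin, at 0.82 (SE 0.258, limma adjusted p 0.111).

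In VE against ob/ob vehicle 0 of the 49 genes passed, against 0.486% of all probe sets. There were 26 higher and 23 lower, with a median of 0.05, against -0.07 over all probe sets. After quantile normalization the median was 0.15, against 0.02. At an unadjusted limma p under 0.05 with a fold over 1.1 there were 4 genes, against 13.3% of all probe sets. Gal3st1, which makes sulfatide, was at 0.69 (SE 0.242, limma adjusted p 0.225) and Fa2h at 0.49 (SE 0.216, limma adjusted p 0.344). Siglec1 was at -0.69 (SE 0.258, limma adjusted p 0.258) and Siglece, another lectin of this family, at -0.49 (limma adjusted p 0.511). Nans was at 0.48 (limma adjusted p 0.347) and Cmas, which activates sialic acid, at 0.28 (limma adjusted p 0.577). St3gal3 and St3gal4 were at 0.38 and 0.39 (limma adjusted p 0.412 and 0.475). Cers6, a ceramide synthase, was at -0.50 and Kdsr, of the first steps to ceramide, at 0.34 (limma adjusted p 0.507 and 0.633). B3gnt5 was at 0.11 and B3galt4, which makes GM1, at 0.07 (limma adjusted p 0.895 and 0.920), and the sialidase genes Neu3 and Neu2 were at 0.27 and 0.33 (limma adjusted p 0.599 and 0.613). St6galnac5 was at -1.10 in this comparison. It was chosen for its value on the same VE arrays, so nothing is read from its larger size.

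In VE against wild type, 0 of the 49 genes passed, against 0.0991% of all probe sets. There were 38 lower and 11 higher, with a median of -0.26, against -0.07 over all probe sets and -0.280 over the 7402 brightest. After quantile normalization the median was -0.13, against 0.005 over all probe sets. At an unadjusted limma p under 0.05 with a fold over 1.1 there were 14 genes, against 12.2% of all probe sets. Fa2h was at -1.17 (SE 0.216, limma adjusted p 0.0634) and Ugt8a, which makes galactosylceramide, at -1.10 (SE 0.326, limma adjusted p 0.213). B4galt5 and Cers6 were at -1.02 and -0.78 (limma adjusted p 0.142 and 0.325), and Gm2a and Neu3 at -0.82 and 0.74 (limma adjusted p 0.134 and 0.170). These genes lay on both sides of wild type, with the myelin lipid genes among the lower ones. St6galnac2, a sialyltransferase of glycoproteins, was at -0.67 and St3gal4 at -0.35 (limma adjusted p 0.275 and 0.517). Gne and Cmas were at -0.41 and 0.33 (limma adjusted p 0.558 and 0.514), B3gnt5 and A4galt at 0.47 and -0.17 (limma adjusted p 0.477 and 0.757), and Mag and the B cell lectin Cd22 at -0.70 and -0.17 (limma adjusted p 0.304 and 0.741).

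**Figure D4:**
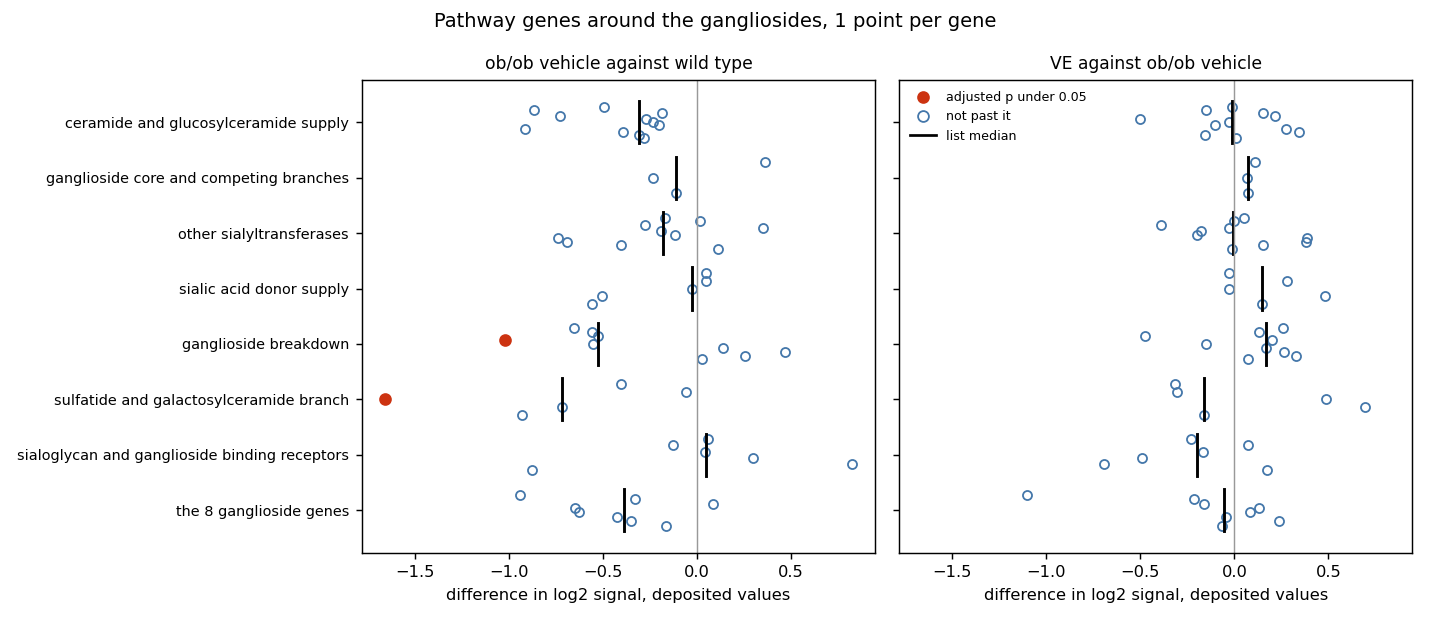
Differences in log2 signal (deposited values) of the 49 measured pathway genes by list, with the 8 ganglioside genes in the lowest row, 1 point per gene and a bar at each list's median. Filled points passed an adjusted p of 0.05, which were Gm2a and Fa2h in ob/ob vehicle against wild type, and the open point farthest left in the right panel is St6galnac5 at -1.10.

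Markers of several brain cell types also had lower values in ob/ob vehicle than in wild type. Over all probe sets 1.27% passed in that comparison, and 2.84% after quantile normalization. The 7402 brightest probe sets had a median of -0.270, with 35.1% wholly below wild type, and a median of -0.039 after quantile normalization. How far the marker values follow this shift was not tested. The mean log2 signal of 10 neuron markers was 14.07 to 14.31 in wild type, 13.25 to 13.76 in ob/ob vehicle and 12.55 to 14.13 in VE, with 10 of 10 lower in ob/ob vehicle and 0 called. After quantile normalization it was 13.74 to 13.93, 13.48 to 13.54 and 13.78 to 13.83. Nefm and Gad1, the lead neuron markers, were at -1.03 and -0.84 in ob/ob vehicle against wild type (limma adjusted p 0.0592 and 0.0761), and Gad1 was at 0.90 in VE against ob/ob vehicle (limma adjusted p 0.0893). Of 8 oligodendrocyte markers 8 were lower and 1, Cldn11, was called, with a list mean of 11.04 to 11.95 in wild type, 10.10 to 10.71 in ob/ob vehicle and 9.87 to 11.03 in VE. Of 8 astrocyte markers 8 were lower and 3 called, among them Sox9 and Gfap, with 11.81 to 11.95, 11.02 to 11.35 and 10.81 to 11.47. Of 4 oligodendrocyte precursor markers 4 were lower and 0 called, with 8.71 to 9.02, 8.29 to 8.45 and 8.14 to 8.45. Of 6 microglia markers 6 were lower and 0 called, and of 7 choroid plexus markers 7 were lower and 2, Folr1 and Kl, called. Of 6 endothelial markers 5 were lower and 0 called, and of 5 adipocyte markers 1 was lower and 0 called, with a list mean of 5.12 to 5.37 in wild type, 5.28 to 5.37 in ob/ob vehicle and 5.18 to 5.53 in VE. After quantile normalization the calls differed: 1 of 8 astrocyte markers was called, Gfap no longer among them (limma adjusted p 0.109), with 6 of 8 lower. On that scale 2 of 6 microglia markers, Csf1r and Cx3cr1, and 1 of 10 neuron markers, Nefm, were called lower (limma adjusted p 0.0419, 0.0357 and 0.0316). The part of these shifts in the ganglioside genes was not tested.

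Between VE and ob/ob vehicle no marker list had a called gene, where 0.486% of all probe sets passed (1.46% after quantile normalization). The median over all probe sets was -0.07, and 0.02 after quantile normalization. With the deposited values the list medians were 0.19 for neurons, 0.11 for astrocytes, 0.27 for oligodendrocytes and -0.075 for oligodendrocyte precursors. They were 0.22 for microglia, 0.03 for endothelium, 0.23 for choroid plexus and 0.02 for adipocytes. After quantile normalization the medians of these 8 lists ran from 0.03 to 0.51, with 1 neuron marker, Gad2, and 1 endothelial marker, Cldn5, called higher. St6galnac5 was at -0.999 on that scale, and a link between it and the cell types was not tested.

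Among 9726 other genes with a signal above the median, the profiles most like that of St6galnac5 over the 9 arrays were those of Ndst4 (Pearson r 0.971), Umps (0.970), Wipf3 (0.965), Rnpep (0.960) and Shisa6 (0.960). After quantile normalization the same 5 correlations were 0.893, 0.963, 0.936, 0.806 and 0.940. Ndst4 codes for an enzyme of heparan sulfate synthesis, Umps for the last enzymes of uridine monophosphate synthesis and Shisa6 for a partner of glutamate receptors. The 9 points share their 3 groups and their scaling, so these values are a description.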

How the data were processed

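The authors deposited 1 log2 signal per probe set and array (22206 probe sets), made by robust multi-chip analysis (RMA, in its signal space transformation form) in Transcriptome Analysis Console, per the design text and the submitters' processing notes. Symbols came from the platform annotation (19572 probe sets with 1 symbol, 2634 with none). The authors' detection filter was not used. From these, limma 3.58.1 under R 4.3.3 fitted a mean per group over all 9 arrays, with moderated variances (degrees of freedom: 6 residual, 7.03 prior), Benjamini-Hochberg adjustment over all probe sets, and calls at adjusted p under 0.05. Precision is limited by 3 arrays per group, with an SE of 0.191 to 0.314 for the 8 genes.

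The members and lists were chosen with earlier results of these data known. All members were named, and from each pathway list the called genes or else the 2 with the smallest unadjusted p. Of each marker list up to 2 genes with the smallest p could be named, and for a called member the 5 genes of highest Pearson r. Of several probe sets of a gene, that of highest mean was used. Alternatives were quantile normalization, median centring, the call rule of the design text (unadjusted p under 0.05, fold over 1.1), adjusted p under 0.1, trend and robust moderation, a filter on signal, 1-symbol probe sets, the 2 compared groups alone, the replicate block, array weights and leaving out each array. Scripts were tested on simulated data.

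The replicate numbers were not taken to pair the arrays.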

Additional observations from a re-analysis of the deposited data

How the results depend on the processing

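Of 498 differences of single genes over 21 alternatives, 33 changed sign, and the cause was not tested. Changing the call rule, the moderation, the probe sets or groups fitted, or the block left the difference as it was. Leaving out an array of a group not compared did so too. Such entries could not change sign, so 33 of 498 does not measure stability. In ob/ob vehicle against wild type, 0 of 8 ganglioside genes passed, against 1 with median centring, 1 at adjusted p under 0.1, 1 with the filter on signal, and 3 each with the call rule of the design text, the 2 groups alone and array weights, where 4457, 2626 and 3601 of 22206 probe sets passed against 281. Leaving out an array gave 0 to 2, with 2 (St6galnac5 and St8sia5) without VE array 2, and in 4 of these 9 fits no probe set at all passed. Of the other pathway genes 2 passed, against 15 with the design text's rule and 8 at adjusted p under 0.1. The 2 groups alone gave 11, array weights 14, and quantile normalization without VE array 2 gave 7. That last setting was chosen after seeing the data, as was cyclic loess. With an array left out 0 to 12 pathway genes passed. Of all probe sets 1204 passed at adjusted p under 0.1 and 1970 with quantile normalization without VE array 2. Median centring gave 614, and the filter on signal 407 of 11103.

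In VE against ob/ob vehicle, 0 ganglioside genes passed, against 1, St6galnac5, with the design text's rule, adjusted p under 0.1, the filter on signal, array weights, and quantile normalization without VE array 2, and 0 to 1 leaving out an array, with no probe set passing in 5 of the 9 fits. Of the other pathway genes 0 passed, against 4 with the design text's rule and 5 with array weights. Of all 22206 probe sets 108 passed, against 2962 with the design text's rule and 3307 with array weights. At adjusted p under 0.1 there were 433, and 418 with quantile normalization without VE array 2. With the filter on signal 180 of 11103 passed. In VE against wild type, which chose the gene, so that these counts support nothing, 1 was called, against 0 with quantile normalization, the 2 groups alone or cyclic loess, 2 with the design text's rule or array weights, and 0 to 1 leaving out an array. The other pathway genes had 0, against 14 with the design text's rule, 12 with array weights, 1 at adjusted p under 0.1, 1 with the filter on signal, and 0 to 1 leaving out an array.

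Changes of sign in ob/ob vehicle against wild type were St3gal5 at 0.081 with quantile normalization, 0.082 also without VE array 2, and 0.11 with cyclic loess, and St3gal2 at -0.011, -0.011 and -0.013. In VE against ob/ob vehicle, St3gal5 was at 0.06 with median centring, 0.23 with array weights, 0.19 with quantile normalization without VE array 2, and -0.34 to 0.35 leaving out an array. St8sia3 was at 0.073, 0.08, 0.19, 0.049 and 0.078 with quantile normalization, centring, array weights, quantile normalization without VE array 2, and cyclic loess, and -0.22 to 0.245 leaving out an array. B4galnt1 was at -0.016 with array weights, St6galnac3 at 0.12 with quantile normalization without VE array 2, and leaving out an array gave -0.17 to 0.31, -0.35 to 0.0017 and, for St8sia5, -0.057 to 0.34. In VE against wild type, St3gal5 was at 0.045, 0.085, 0.27 and 0.052 with quantile normalization, array weights, quantile normalization without VE array 2, and cyclic loess, and -0.51 to 0.19 leaving out an array. St8sia1 was at 0.12, 0.035 and 0.11 with quantile normalization, the same without VE array 2, and cyclic loess, and St3gal2 at -0.14 to 0.0033 leaving out an array.

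With the replicate number as a block, 0 ganglioside genes passed in ob/ob vehicle against wild type and in VE against ob/ob vehicle, with a limma adjusted p of 0.0683 and 0.0692 for St6galnac5. Correlations of same-numbered deviations ran from -0.0323 to 0.331. Differently numbered arrays were not compared, so these values cannot decide whether the numbers pair the arrays. The numbers were not taken as pairs. Over the 21 alternatives St6galnac5 was at -1.18 to -0.56, -1.29 to -0.95 and -2.29 to -1.54 in the 3 comparisons. Many of these alternatives change the call rule or the estimate of spread alone and could not move the difference. The third comparison chose the gene, so its range supports nothing. Signals of 3 arrays a group limit the precision.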
